A study of Mus musculus with 20 samples.

Results

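The genes described here are 31 genes of cholesterol synthesis and handling, chosen by symbol. They comprise 7 enzymes from acetyl-CoA to the isoprenoids and 11 enzymes from squalene to cholesterol. Another 5 genes are grouped with the sterol sensor that sets transcription of these enzymes, among them the sterol carrier *Stard4*. A further 3 genes store or move sterol within the cell, and 5 are genes of sterol export or of the liver X receptor (LXR). A probe was matched for 30 of the 31 genes through the accession that the array gives for it, and these are 30 of 12986 genes with a present probe. No probe was matched to *Idi1* in this way. Each gene is represented by its present probe of highest mean intensity. RNA came from the liver of 20 male Muta™Mouse animals (transgenic strain 40.6, which carries a *lacZ* reporter), 25 weeks of age. The 4 groups of 5 mice received olive oil alone (control, 0 mg/kg BaP) or benzo(a)pyrene (BaP), a polycyclic aromatic hydrocarbon, in olive oil at 25, 50 or 75 mg/kg/day by gavage over 28 days, and all were killed 3 days after the last dose. Each liver RNA, carrying Cyanine 5, shared an Agilent array with a Cyanine 3-labeled universal reference, a pool of RNA from 11 mouse cell lines, and a value here is log2 of the liver signal over the reference signal on 1 array. A ratio against cultured cell lines sets a gene in liver against dividing cells of other origin, and only differences between mice are compared below.

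Cholesterol is built from acetyl-CoA by a single route: the mevalonate steps lead to farnesyl diphosphate, farnesyl units are joined to squalene, squalene epoxide is closed to lanosterol, and lanosterol is trimmed and rearranged to cholesterol. The genes of the route share a switch. When sterol in the endoplasmic reticulum is low, SCAP escorts the precursor of SREBP2 to the Golgi, where the active factor is released, and when sterol is high the INSIG proteins hold the complex back. Surplus sterol is esterified, exported or secreted into bile, and oxidised sterols switch on export through LXR. The liver is the main organ of both directions.

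The stretch before the start site is shown for 3 synthesis genes, because SREBP2 acts on such promoters together with the factors NF-Y and Sp1 and these genes recur in the results. A window of 250 bases before an annotated start (RefSeq, build GRCm38.p6) was at hand for 25 of the 31 genes, as 33 windows. The letters TCACNCCAC (a form of the sterol regulatory element), CCAAT (NF-Y) and GGGCGG (Sp1) were searched on both strands. In the sequences below, 5′ to 3′ on the strand of the gene, capitals mark the sterol element letters and the CCAAT letters on either strand (ATTGG on the shown strand).
Hmgcs1, chr13:119690101-119690350, plus strand: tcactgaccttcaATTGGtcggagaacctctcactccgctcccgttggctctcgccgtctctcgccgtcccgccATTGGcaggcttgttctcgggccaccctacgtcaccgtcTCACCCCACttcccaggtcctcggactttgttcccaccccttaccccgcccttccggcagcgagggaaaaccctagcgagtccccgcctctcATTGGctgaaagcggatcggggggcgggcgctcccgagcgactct
Mvk, chr5:114444019-114444268, plus strand: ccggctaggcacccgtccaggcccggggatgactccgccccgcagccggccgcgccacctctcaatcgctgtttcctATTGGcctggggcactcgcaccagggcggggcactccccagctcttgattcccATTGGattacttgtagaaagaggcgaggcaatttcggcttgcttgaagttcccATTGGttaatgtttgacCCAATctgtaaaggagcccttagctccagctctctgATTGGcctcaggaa
Lss, chr10:76531355-76531604, plus strand: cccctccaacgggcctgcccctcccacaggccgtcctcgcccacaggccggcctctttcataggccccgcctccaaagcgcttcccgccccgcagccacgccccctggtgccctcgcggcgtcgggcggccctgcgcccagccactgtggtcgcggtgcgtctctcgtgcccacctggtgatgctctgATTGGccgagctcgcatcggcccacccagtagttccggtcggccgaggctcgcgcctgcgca
TCACNCCAC was found in 1 of the 33 windows, that of *Hmgcs1* (TCACCCCAC, first base 137 bases before the start), and in 1.05% of all 32851 promoter windows of this length. CCAAT was found in 60.6% of the windows of the cholesterol genes and in 33.8% of all windows, and GGGCGG in 69.7% and 32.7%. By gene, 17 of 19 synthesis and SREBP2 genes with a window held CCAAT and 18 held GGGCGG, while 2 of the 5 export genes held each. *Mvk* had 5 CCAAT matches, *Hmgcs1* 3 and *Lss* 1. These are matches of letters in a fixed window, with no measure of binding.

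All 30 genes passed the filter on low intensity, and 29 of them had a value on every array, while *Ebp* lacked a value in 50 mg/kg/day replicate 13, where its spot was marked as an outlier. The share of spots well above background on the liver side ran from 51.9 to 67.5% per array, with the highest share in control replicate 4, which stood apart. Within a group, arrays correlated across probes at r = 0.931 to 0.983. Liver was checked by its markers: 7 hepatocyte genes (*Alb*, *Ttr*, *Apoa1*, *Apoa2*, *Fabp1*, *Tat* and *Serpina1c*) were well above background on all 20 arrays. Of 5 lung epithelium genes, the surfactant genes *Sftpc* and *Sftpb* were so on 0 arrays, *Ager* on 1, *Scgb1a1* on 5 and the surfactant gene *Sftpa1* on 16, so the lung list was not wholly absent. The arrays lay on 6 slides. Slides 1 to 3 each held 1 array of every group, slides 4 and 5 held the other 25 and 75 mg/kg/day arrays, and slide 6 held the other control and 50 mg/kg/day arrays. The position of an array on its slide followed the dose group for nearly all arrays, and the part of position in a difference between doses cannot be told apart from that of dose.

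No cholesterol gene was called at any dose. A call required an adjusted p under 0.05 (limma, Benjamini-Hochberg over 27345 probes) and a fold change over 1.5; the share of all probes called was 0% at 25, 0% at 50 and 0.135% at 75 mg/kg/day. The lowest adjusted p among the 30 genes was 0.637 at 25 (*Nsdhl*, *Tm7sf2* and *Npc1*), 0.336 at 50 (*Lss*) and 0.084 at 75 mg/kg/day (*Tm7sf2*). Most of the genes nevertheless read higher in exposed livers, with small differences. The 7 hepatocyte markers also read higher, with median log2 fold changes of 0.37, 0.32 and 0.49 at the 3 doses, and their part in these results was not tested. In bulk liver, fewer cells of a type and less RNA per cell cannot be told apart. At 50 mg/kg/day, 25 of 30 genes had a log2 fold change above 0, against 49.2% of all probes, and 12 of 30 were higher at an unadjusted p under 0.05, against 3.75% of all probes. At 75 mg/kg/day, 26 genes were above 0 (50.6% of all probes) and 11 were higher at an unadjusted p under 0.05 (6.52%). At 25 mg/kg/day, 25 genes were above 0 (50.3%) and 3 were higher at that p (4.18%). At none of the 3 doses was a gene of the set lower at that p, against 3.62, 2.94 and 4.69% of all probes. The genes of a shared switch do not vary independently, so these shares describe the set and are not a test of it. In either direction, 7.8, 6.7 and 11.2% of all probes were at an unadjusted p under 0.05 at the 3 doses. Without control replicate 4, the counts of cholesterol genes were 3 at 25, 10 at 50 and 6 at 75 mg/kg/day, with 6.07, 4.78 and 9.12% of all probes. The count at 75 mg/kg/day was also 6 without replicate 16 of that dose (11.7% of all probes) and 7 without replicate 18 or 20 (10.6 and 7.47%). The count at 25 mg/kg/day was 5 without control replicate 1 or 3, where the share of all probes was 10.2 and 8.22%.

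**Figure D1:**
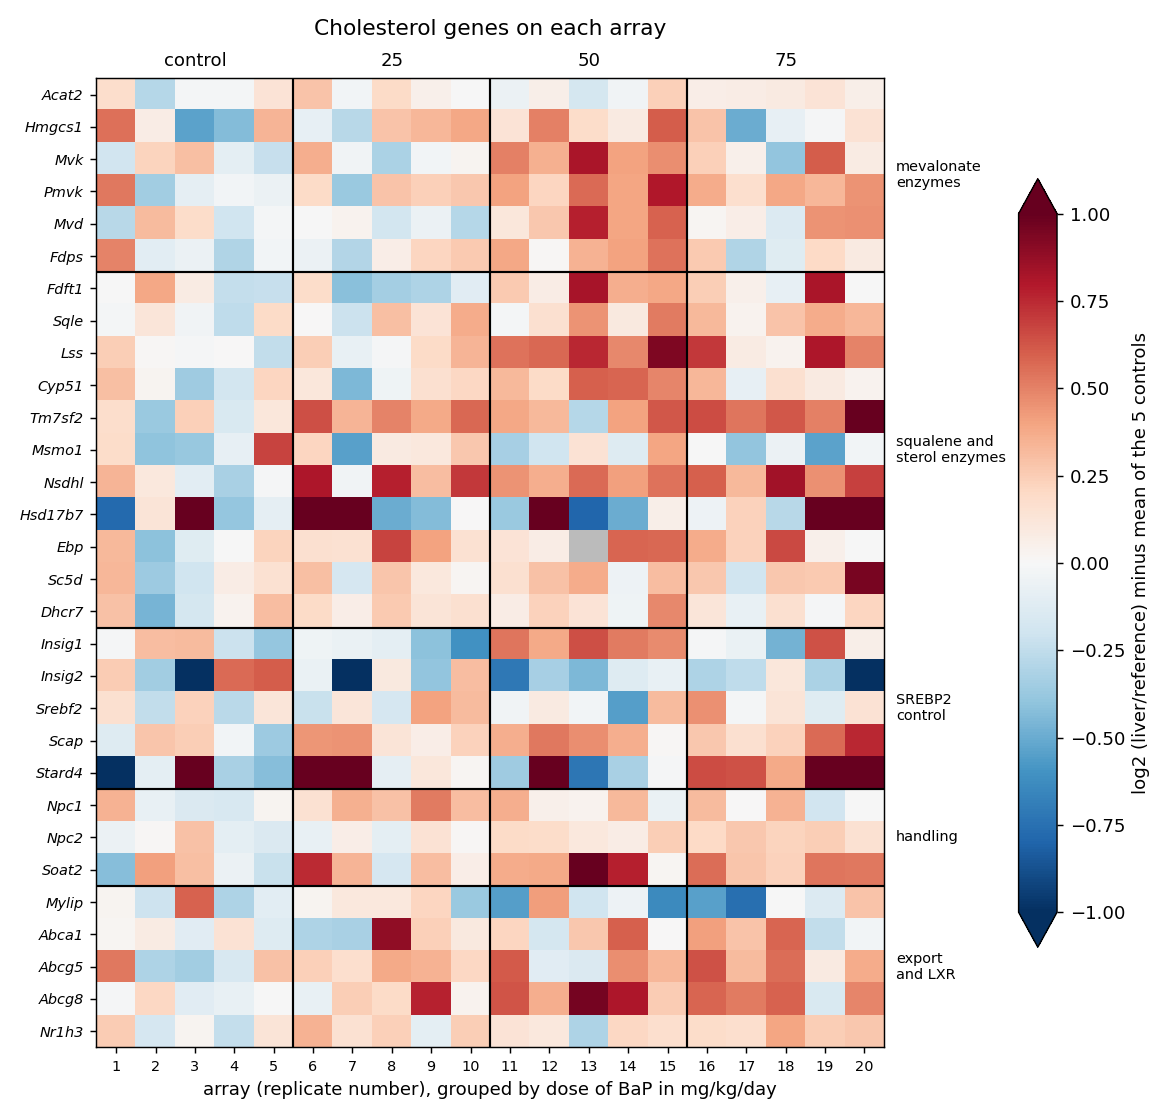
Heat map of 30 cholesterol genes (rows, by role) on 20 arrays (columns, by dose of BaP in mg/kg/day), as log2 liver over reference minus the mean of the 5 controls; colors stop at -1 and 1, and the gray cell has no value. The columns at 50 mg/kg/day are the reddest among the mevalonate enzymes. *Stard4* and *Hsd17b7* vary by over 1 log2 unit between arrays in every group, and several other genes, among them *Insig2* and *Hmgcs1*, do so in some groups.

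By median, the mevalonate enzymes stood highest at the middle dose, although none was called there or between 75 and 50 mg/kg/day. The median log2 fold change of the 6 measured enzymes was 0.07 at 25, 0.38 at 50 and 0.10 at 75 mg/kg/day, where the median of all probes was within 0.01 of 0, and 4 of the 6 were higher at 50 mg/kg/day at an unadjusted p under 0.05, as were 3.75% of all probes. These 4 were *Mvk* and *Pmvk*, the successive kinases that phosphorylate mevalonate, *Mvd*, which decarboxylates the product to isopentenyl diphosphate, and *Fdps*, which makes farnesyl diphosphate. *Pmvk* read 1.90, 1.03, 1.28, 1.35 and 1.32 in control replicates 1 to 5, 1.56, 1.00, 1.66, 1.61 and 1.64 at 25 mg/kg/day (replicates 6 to 10), 1.78, 1.59, 1.94, 1.77 and 2.17 at 50 mg/kg/day (replicates 11 to 15) and 1.74, 1.54, 1.76, 1.71 and 1.82 at 75 mg/kg/day (replicates 16 to 20). The 50 mg/kg/day values all lay above 4 of the 5 controls, but control replicate 1 (1.90) lay within them, and 25 mg/kg/day replicate 7 was the lowest of all. The log2 fold changes of *Pmvk* were 0.12 ± 0.15, 0.48 ± 0.15 and 0.34 ± 0.15 (SE) at 25, 50 and 75 mg/kg/day, with adjusted p = 0.648 at 50 mg/kg/day by limma. Its other probe gave 0.12, 0.50 and 0.32.

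*Mvk* was 1 of 5 genes of the set for which every 50 mg/kg/day array lay above every control, as for 0.527% of all probes; the others were *Lss*, *Nsdhl*, *Insig1* and *Abcg8*. Its values ran from 1.22 to 1.68 at 50 mg/kg/day and from 0.63 to 1.16 in controls, while those at 25 (0.55 to 1.23) and 75 mg/kg/day (0.47 to 1.46) overlapped the controls. The difference of *Mvk* at 50 mg/kg/day was 0.51 ± 0.16 (limma adjusted p = 0.648), with 0.00 at 25 and 0.11 at 75 mg/kg/day, and its other probe gave 0.06, 0.44 and 0.13. *Mvd* differed by -0.10, 0.43 and 0.17 and *Fdps* by 0.04, 0.34 and 0.02 on the log2 scale at the 3 doses in order. *Hmgcs1*, which makes HMG-CoA, differed by 0.13, 0.30 and -0.03, and its dimmer probe by 0.01, 0.69 and -0.08. Both probes of *Hmgcs1* were thus highest at 50 mg/kg/day, where the standard error of the brighter was 0.20. *Acat2*, the cytosolic thiolase that joins acetyl-CoA units, was the exception among these enzymes at 50 mg/kg/day, with 0.10, 0.01 and 0.09.

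**Figure D2:**
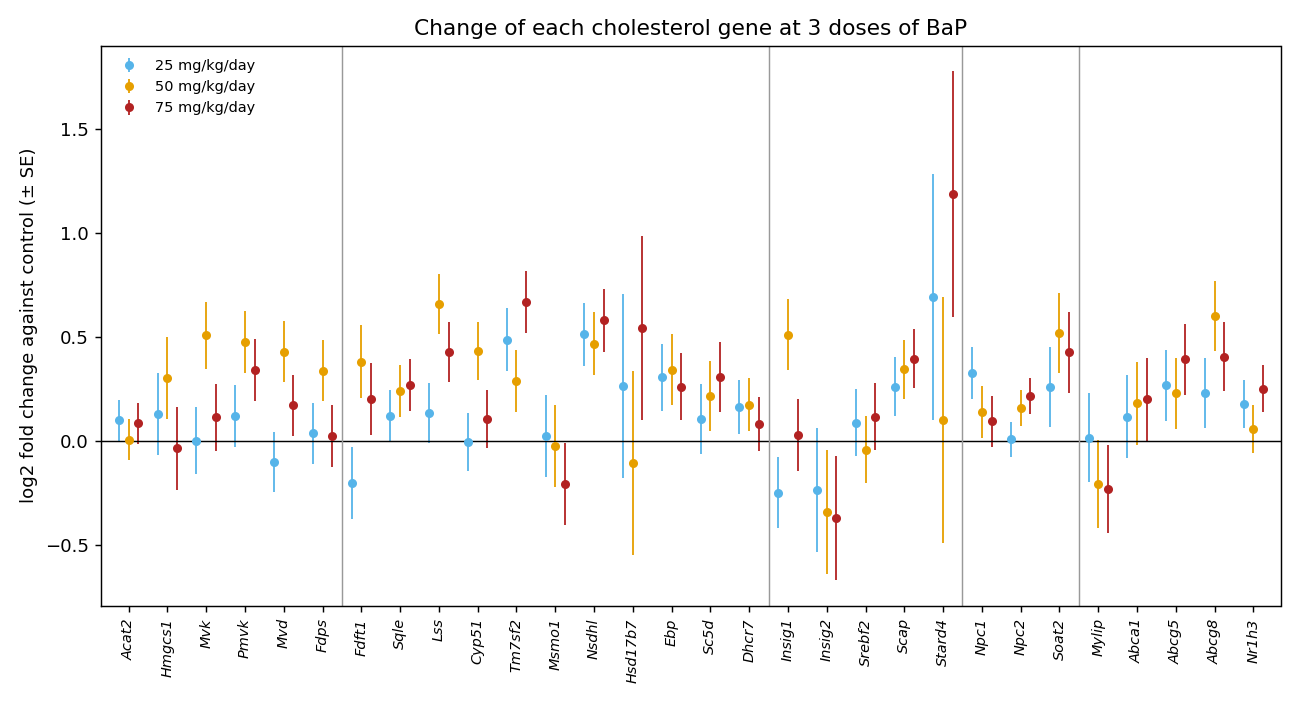
Log2 fold change against control (points, with SE bars) of 30 cholesterol genes along the pathway at 3 doses of BaP; vertical lines part the mevalonate enzymes, the squalene and sterol enzymes, the SREBP2 control genes, the handling genes and the export genes. *Mvk*, *Mvd*, *Cyp51* and *Insig1* stand at 0.43 to 0.51 at 50 mg/kg/day and at 0.17 or less at the other doses.

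Among the squalene and sterol enzymes, *Lss*, *Nsdhl* and *Tm7sf2* were the genes of lowest p. The median log2 fold change of the 11 enzymes was 0.14, 0.29 and 0.27 at the 3 doses, with 2, 4 and 4 of them higher at an unadjusted p under 0.05, against 4.18, 3.75 and 6.52% of all probes. *Lss* is lanosterol synthase, which closes squalene epoxide to the first sterol. *Lss* read 1.64, 1.40, 1.39, 1.39 and 1.15 in control replicates 1 to 5, 1.64, 1.32, 1.38, 1.58 and 1.73 at 25 mg/kg/day (replicates 6 to 10), 1.94, 1.97, 2.14, 1.88 and 2.32 at 50 mg/kg/day (replicates 11 to 15) and 2.10, 1.48, 1.43, 2.20 and 1.89 at 75 mg/kg/day (replicates 16 to 20). All 5 arrays at 50 mg/kg/day lay above all controls, 3 of 5 did at 75 and 1 of 5 at 25 mg/kg/day. The fold change of *Lss* was 1.58 at 50 mg/kg/day (log2 0.66 ± 0.14, limma adjusted p = 0.336), rank 15 of 27345 probes by p. At 75 mg/kg/day it was 1.34 (log2 0.43 ± 0.14, limma adjusted p = 0.281), and at 25 mg/kg/day the log2 value was 0.14. The second probe of *Lss* gave 0.06, 0.66 and 0.28.

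*Nsdhl* encodes the sterol dehydrogenase of C-4 demethylation. *Nsdhl* read 2.36, 2.12, 1.91, 1.69 and 2.00 in control replicates 1 to 5, 2.82, 1.98, 2.79, 2.32 and 2.72 at 25 mg/kg/day (replicates 6 to 10), 2.47, 2.38, 2.58, 2.42 and 2.56 at 50 mg/kg/day (replicates 11 to 15) and 2.61, 2.34, 2.86, 2.47 and 2.70 at 75 mg/kg/day (replicates 16 to 20). All arrays at 50 mg/kg/day, 4 of 5 at 75 and 3 of 5 at 25 mg/kg/day lay above the highest control, and 25 mg/kg/day replicate 7 lay among the controls. *Nsdhl* stood at a similar distance from control at every dose, with log2 fold changes of 0.51 ± 0.15, 0.47 ± 0.15 and 0.58 ± 0.15 (limma adjusted p = 0.637, 0.665 and 0.151). Its 2 other probes gave 0.42, 0.71 and 0.39, and 0.53, 0.64 and 0.63. The 3 probes read the same transcript in the same RNA and are not replicates of one another.

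*Tm7sf2* encodes a C-14 sterol reductase. *Tm7sf2* read 5.30, 4.76, 5.37, 4.98 and 5.25 in control replicates 1 to 5, 5.78, 5.47, 5.63, 5.51 and 5.70 at 25 mg/kg/day (replicates 6 to 10), 5.51, 5.46, 4.84, 5.54 and 5.75 at 50 mg/kg/day (replicates 11 to 15) and 5.78, 5.66, 5.75, 5.64 and 6.16 at 75 mg/kg/day (replicates 16 to 20). It was the only gene of the set with all 5 arrays above all controls at 25 mg/kg/day (0.56% of all probes) and at 75 mg/kg/day (0.936%), whereas at 50 mg/kg/day replicate 13 (4.84) lay near the lowest control. The log2 fold changes of *Tm7sf2* were 0.49 ± 0.15, 0.29 ± 0.15 and 0.67 ± 0.15, the last a fold change of 1.59 with limma adjusted p = 0.084. Without 50 mg/kg/day replicate 13, which enters the shared estimate of spread, *Tm7sf2* passed the call at 75 mg/kg/day with a log2 fold change of 0.67 and limma adjusted p = 0.0268. In that fit 0.128% of all probes were called at 75 mg/kg/day. With slide as a block its log2 fold changes were 0.34 at 25 and 0.52 at 75 mg/kg/day (limma adjusted p = 0.175 at 75).

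**Figure D3:**
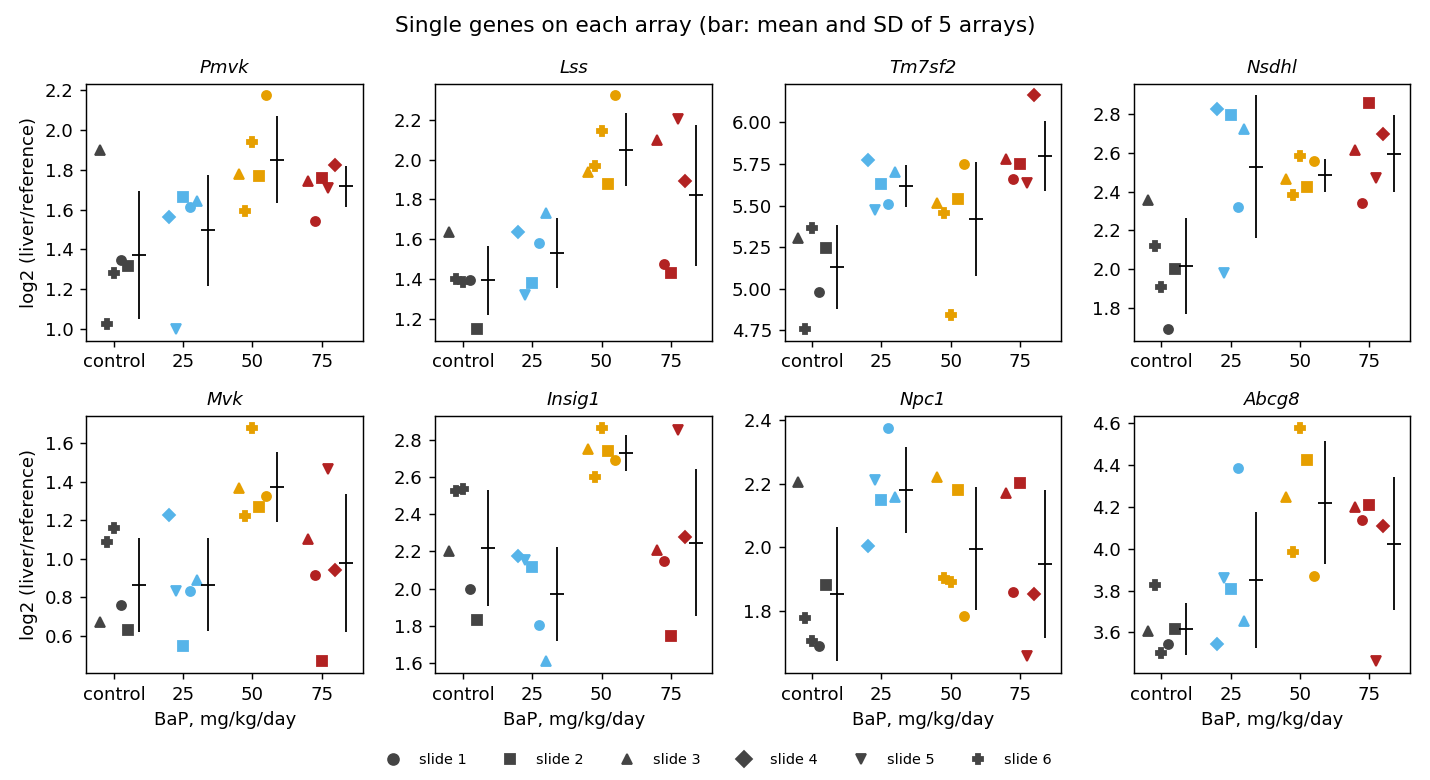
Log2 ratio of liver over reference for 8 genes on each array by dose (mg/kg/day BaP); symbols give the slide, and the bar at the right of each group is its mean with SD (n = 5). At 50 mg/kg/day the points of *Lss*, *Nsdhl*, *Mvk*, *Insig1* and *Abcg8* lie above all control points, and those of *Tm7sf2* do so at 25 and 75 mg/kg/day.

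Among the other sterol enzymes, *Cyp51*, the lanosterol demethylase, was highest at 50 mg/kg/day on its brightest probe. The log2 fold changes of that probe were 0.00, 0.43 and 0.11, with 4 of 5 arrays at 50 mg/kg/day above all controls. The 2 further probes of *Cyp51* gave 0.08 and 0.35 at 50 mg/kg/day, so its probes did not all show that difference. *Fdft1*, squalene synthase, differed by -0.20, 0.38 and 0.20, with 3 of 5 arrays at 25 mg/kg/day below all controls, while its dimmer probe gave 0.16, 0.01 and 0.05 and so did not show the difference at 50 mg/kg/day. *Sqle*, squalene epoxidase, differed by 0.12, 0.24 and 0.27, and 4 of 5 arrays at 75 mg/kg/day lay above all controls. The late enzymes *Ebp*, a sterol isomerase, and *Sc5d*, a desaturase, differed by 0.31, 0.34 and 0.26 and by 0.11, 0.22 and 0.31, the 50 mg/kg/day value of *Ebp* resting on 4 arrays. *Dhcr7*, which reduces a double bond of the B ring, differed by 0.16, 0.18 and 0.08, and its other probe by 0.06, 0.40 and 0.07. *Msmo1*, the C-4 methyl oxidase of the same complex as *Nsdhl*, differed by 0.03, -0.02 and -0.20, with a standard error of 0.20 at each dose.

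The genes of the SREBP2 switch differed among themselves. The median log2 fold change of the 5 genes of this group, which includes the sterol carrier *Stard4*, was 0.09, 0.10 and 0.12 at the 3 doses. *Insig1* and *Scap* were the only members of the group at an unadjusted p under 0.05 at 50 mg/kg/day. *Insig1*, which retains SCAP in the endoplasmic reticulum and is itself a target of SREBP2, ran from 2.60 to 2.86 at 50 mg/kg/day and from 1.83 to 2.53 in controls, so these groups did not overlap. At 25 mg/kg/day it ran from 1.61 to 2.17 and at 75 mg/kg/day from 1.75 to 2.85, in both cases overlapping the controls. Its log2 fold changes were -0.25 ± 0.17, 0.51 ± 0.17 and 0.03 ± 0.17, with limma adjusted p = 0.676 at 50 mg/kg/day. The second probe of *Insig1* gave 0.13, 0.47 and 0.48, so the probes differed in direction at 25 mg/kg/day and in size at 75 mg/kg/day. *Scap*, the escort of SREBP2, differed by 0.26 ± 0.14, 0.35 ± 0.14 and 0.40 ± 0.14, with 4 of 5 arrays at 50 and 2 of 5 at 75 mg/kg/day above all controls. *Srebf2*, which encodes SREBP2, differed by 0.09, -0.04 and 0.12. *Insig2* differed by -0.23, -0.34 and -0.37 with a standard error of 0.30 and was the 1 gene of the 5 with values below 0 at every dose, where its other probe gave 0.07, -0.03 and -0.10.

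*Stard4*, which carries sterol between membranes, had the widest spread of the set. Its brightest probe ran from 2.15 to 5.19 in controls and from 3.63 to 5.93 at 75 mg/kg/day, with log2 fold changes of 0.69 ± 0.59, 0.10 ± 0.59 and 1.19 ± 0.59. The 6 highest arrays of this probe (control replicate 3, 25 mg/kg/day replicates 6 and 7, 50 mg/kg/day replicate 12 and 75 mg/kg/day replicates 19 and 20) all lay on slides 4 to 6. On slides 1 to 3 alone, this probe passed the call at 75 mg/kg/day with a log2 fold change of 1.17 (limma adjusted p = 0.0338). The other 2 probes of *Stard4* gave 0.13, 0.09 and 0.10, and 0.11, 0.17 and 0.07, and lay within 1 log2 unit of the control mean on every array. The brightest probe of *Hsd17b7*, the keto reductase of C-4 demethylation, was high on the same 6 arrays, with log2 fold changes of 0.26 ± 0.44, -0.11 ± 0.44 and 0.54 ± 0.44, and its other probe gave 0.19, 0.03 and 0.27. The high values of both bright probes thus lay on slides 4 to 6, although the other 2 arrays of slide 6 (control replicate 2 and 50 mg/kg/day replicate 13) were not among them.

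Of the genes that move or store sterol, *Npc1* stood higher at the lowest dose and *Soat2* at the upper doses. *Npc1* and *Npc2* pass cholesterol out of the lysosome, and *Soat2* esterifies it for storage and lipoprotein assembly. *Npc1* read 2.20, 1.78, 1.71, 1.69 and 1.88 in control replicates 1 to 5, 2.00, 2.21, 2.15, 2.37 and 2.16 at 25 mg/kg/day (replicates 6 to 10), 2.22, 1.90, 1.89, 2.18 and 1.78 at 50 mg/kg/day (replicates 11 to 15) and 2.17, 1.86, 2.20, 1.66 and 1.85 at 75 mg/kg/day (replicates 16 to 20). At 25 mg/kg/day, 4 of the 5 controls lay below every exposed array, but control replicate 1 (2.20) lay inside their range, and the upper doses overlapped the controls. The log2 fold changes of *Npc1* were 0.33 ± 0.12, 0.14 ± 0.12 and 0.09 ± 0.12, with limma adjusted p = 0.637 at 25 mg/kg/day. *Soat2* differed by 0.26 ± 0.19, 0.52 ± 0.19 and 0.43 ± 0.19, with 2 of 5 arrays at 50 and 3 of 5 at 75 mg/kg/day above all controls. *Npc2* differed by 0.01, 0.16 and 0.22, with an SD of only 0.04 among the 75 mg/kg/day arrays, yet 0 of 5 exposed arrays at each dose lay above the highest control.

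On the export side, no gene was called, and *Abcg8* had the lowest p at 50 mg/kg/day. The proteins of *Abcg5* and *Abcg8* pair to pump sterol into bile, *Abca1* loads it onto nascent high density lipoprotein, *Mylip* encodes a ubiquitin ligase induced by LXR, and *Nr1h3* encodes LXRα. *Abcg8* read 3.61, 3.82, 3.50, 3.54 and 3.62 in control replicates 1 to 5, 3.54, 3.86, 3.81, 4.38 and 3.65 at 25 mg/kg/day (replicates 6 to 10), 4.24, 3.98, 4.58, 4.42 and 3.87 at 50 mg/kg/day (replicates 11 to 15) and 4.20, 4.14, 4.21, 3.46 and 4.11 at 75 mg/kg/day (replicates 16 to 20). Every array at 50 mg/kg/day lay above the controls, as did 4 of 5 at 75 mg/kg/day, where replicate 19 was below all controls. The log2 fold changes of *Abcg8* were 0.23 ± 0.17, 0.60 ± 0.17 and 0.41 ± 0.17, with limma adjusted p = 0.578 at 50 mg/kg/day, and its dimmer probe gave 0.21, 0.49 and 0.33. With the signals processed by the scanner software they were 0.08 at 50 and -0.04 at 75 mg/kg/day. The liver spot of *Abcg8* was well above background on all 20 arrays. Its mean log2 intensity over both channels was 7.85, with liver above reference by 3.62 in controls, so the reference side was the dimmer. That side was not counted against background for single genes.

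*Abcg5* differed by 0.27 ± 0.17, 0.23 ± 0.17 and 0.39 ± 0.17, with 2 of 5 arrays at 75 mg/kg/day above all controls. *Nr1h3* differed by 0.18, 0.06 and 0.25 and *Abca1* by 0.12, 0.18 and 0.20; the SD of *Abca1* was 0.12 among controls and 0.49 at 25 mg/kg/day, where 2 arrays lay above and 2 below all controls. With slide as a block, *Abca1* stood at 0.32, 0.18 and 0.41 (limma adjusted p = 0.51, 0.626 and 0.262), *Abcg5* at 0.12, 0.23 and 0.24 and *Nr1h3* at 0.07, 0.06 and 0.15. *Mylip* differed by 0.02, -0.21 and -0.23, with 2 of 5 arrays below all controls at 50 and at 75 mg/kg/day, and its standard error was 0.21 at each dose.

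Synthesis genes were set against export genes by the median of each group on each array. The median of the 22 synthesis and SREBP2 genes, relative to the control means, lay between -0.17 and 0.18 on the controls, between -0.05 and 0.22 at 25, between 0.15 and 0.48 at 50 and between 0.05 and 0.35 at 75 mg/kg/day. The lowest array at 50 mg/kg/day (replicate 11, 0.15) and the highest control (replicate 1, 0.18) overlapped, and these 2 arrays lay on the same slide. The median of the 5 export genes lay between -0.17 and 0.03 on the controls, between 0.03 and 0.24 at 25, between -0.14 and 0.46 at 50 and between -0.13 and 0.56 at 75 mg/kg/day. Across genes, the synthesis median log2 fold change was 0.11, 0.32 and 0.19 and the export median 0.18, 0.18 and 0.25 at the 3 doses. The difference of synthesis minus export was -0.06, 0.14 and -0.06. Taken per array, the difference had a mean of 0.08 and an SD of 0.06 in controls. In the 3 dose groups the mean per array was -0.04, 0.16 and -0.09, with an SD of 0.17, 0.26 and 0.35. The SD describes single mice, and the difference between the groups of genes was not tested. The synthesis median at 50 mg/kg/day stayed between 0.25 and 0.37 under all alternatives tried and when each array was left out.

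**Figure D4:**
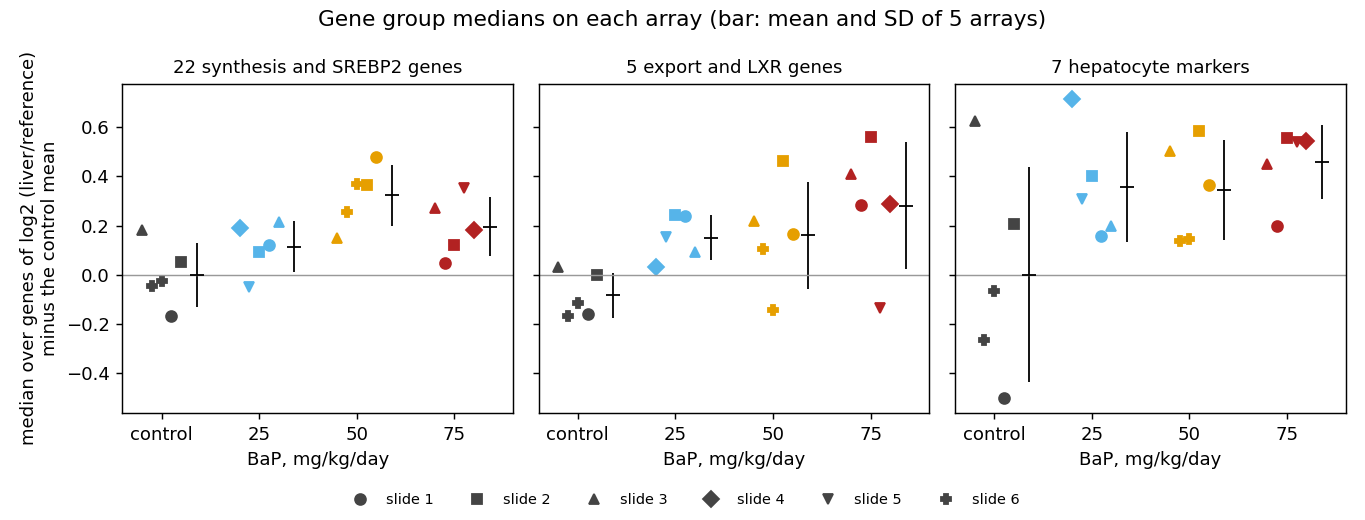
Median over genes of the log2 ratio minus the control mean on each array, for 22 synthesis and SREBP2 genes, 5 export and LXR genes and 7 hepatocyte markers, by dose (mg/kg/day BaP); symbols give the slide, and bars the mean and SD (n = 5). The synthesis medians at 50 mg/kg/day (0.15 to 0.48) overlap the controls (-0.17 to 0.18) only at their lowest array, and the hepatocyte medians are above 0 on all 15 exposed arrays and on 2 controls.

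Slide was compared directly where control and exposed arrays shared a slide. The control and 50 mg/kg/day arrays lay on the same slides in the same numbers, so that a slide term did not move the log2 fold change of a gene measured on all arrays. Within slides, the difference of 50 mg/kg/day from control was taken for each gene. Its median over the synthesis and SREBP2 genes was 0.60, 0.33, 0.01 and 0.30 on slides 1, 2, 3 and 6. For 75 mg/kg/day the within-slide values were 0.17, -0.02 and 0.15 on slides 1 to 3, and for 25 mg/kg/day 0.19, 0.07 and 0.03. The within-slide difference of *Lss* at 50 mg/kg/day was 0.93, 0.73, 0.30 and 0.66, that of *Nsdhl* 0.87, 0.42, 0.11 and 0.47 and that of *Mvk* 0.56, 0.64, 0.69 and 0.33. For these 3 genes every 50 mg/kg/day array lay above every control, so a value above 0 on each slide was fixed in advance. The size still varied, with *Lss* and *Nsdhl* closest to the control on slide 3. Of the 22 synthesis and SREBP2 genes, 21, 13, 12 and 20 were above 0 at 50 mg/kg/day on slides 1, 2, 3 and 6. At the other doses, which were spread unevenly over slides, the slide term moved single genes: at 25 mg/kg/day *Hsd17b7* went from 0.26 to -0.02 and *Sc5d* from 0.11 to -0.03, and at 75 mg/kg/day *Hsd17b7* went from 0.54 to 0.26 and *Sc5d* from 0.31 to 0.17. With slide as a block, 4, 15 and 10 of the 30 genes were at an unadjusted p under 0.05 at the 3 doses (9.83, 11.2 and 13.1% of all probes), and none was called, against 0.011% of all probes at 50 and 0.212% at 75 mg/kg/day.

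All 7 hepatocyte markers had log2 fold changes above 0 at every dose, against 50.3, 49.2 and 50.6% of all probes. At 75 mg/kg/day, 6 of 7 were higher at an unadjusted p under 0.05, against 6.52% of all probes. The median of the markers per array ran from -0.50 to 0.63 on the controls. It ran from 0.16 to 0.72 at 25, from 0.14 to 0.58 at 50 and from 0.20 to 0.56 at 75 mg/kg/day. Between 75 and 50 mg/kg/day, 6 of the 7 markers and 9 of the 22 synthesis and SREBP2 genes were above 0, against 52.4% of all probes. None of the markers was at an unadjusted p under 0.05 there, against 6.91% of all probes. Of 5 markers each, the Kupffer cell list had medians of 0.26, 0.21 and 0.12 and the endothelial list 0.39, 0.30 and 0.58. *Marco* of the Kupffer cell list and *Lyve1* of the endothelial list were called at 75 mg/kg/day, as were 0.135% of all probes. The stellate cell list (4 markers) had medians of 0.11, 0.23 and 0.09 and the B cell list (3 tested) 0.01, -0.02 and 0.02, with none called. Over all 1155 probes whose liver level was at least 3 log2 units above the reference in controls, the median log2 fold change was 0.21, 0.16 and 0.26 at the 3 doses. The 8 cholesterol genes at that level (*Tm7sf2*, *Hsd17b7*, *Ebp*, *Sc5d*, *Stard4*, *Abcg5*, *Abcg8* and *Nr1h3*) had medians of 0.27, 0.22 and 0.40. For the 2295 probes with a control ratio of 1 to 2, the medians were 0.07, -0.01 and 0.05. The 10 cholesterol genes there (*Hmgcs1*, *Pmvk*, *Fdps*, *Fdft1*, *Lss*, *Cyp51*, *Msmo1*, *Scap*, *Npc1* and *Soat2*) had 0.13, 0.36 and 0.16. For the 884 probes with a ratio of 2 to 3 the medians were 0.10, 0.05 and 0.07, and the 6 cholesterol genes there had 0.11, 0.18 and 0.08. At 50 mg/kg/day the cholesterol genes thus stood at 0.36 against -0.01 for all probes in the range of 1 to 2. They stood at 0.18 against 0.05 in the range of 2 to 3 and at 0.22 against 0.16 in the range above 3. The part of the liver level in the results was not tested.

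**Figure D5:**
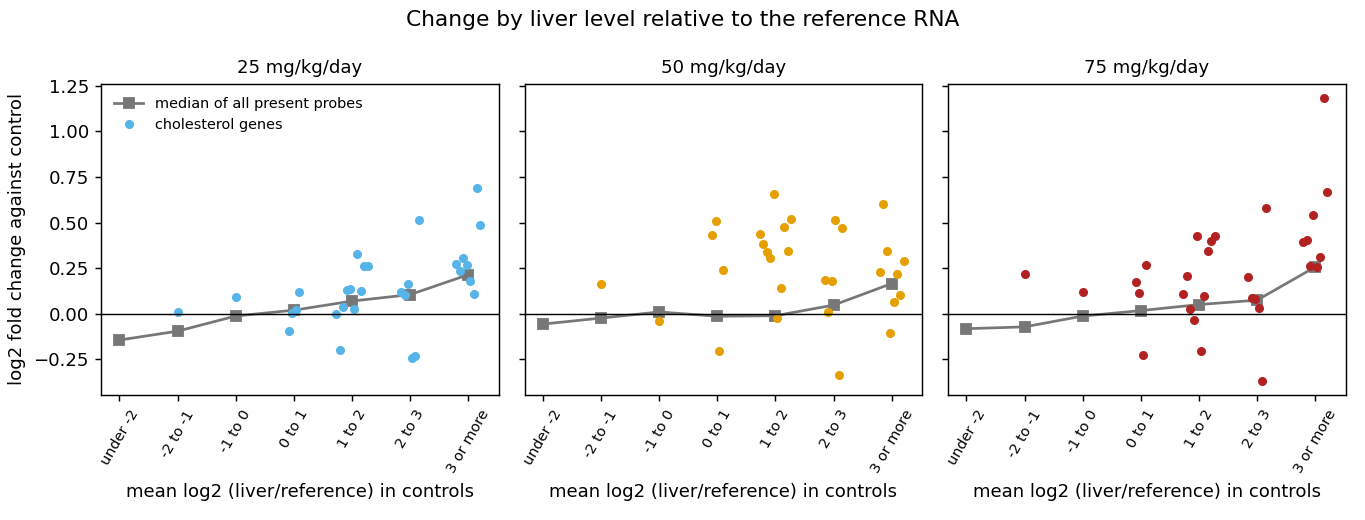
Log2 fold change at each dose against the mean log2 ratio of liver over reference in controls, in 7 ranges; gray squares are the median of all present probes in a range and colored points single cholesterol genes. The gray line reaches 0.21, 0.16 and 0.26 in the highest range, and at 50 mg/kg/day most cholesterol genes with a control ratio of 0 to 2 lie well above it.

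The doses were also set against each other. With dose as a number, no cholesterol gene passed an adjusted p of 0.05 (limma), against 0.157% of all probes, and 10 of 30 had a rising slope at an unadjusted p under 0.05, against 5.07% of all probes and 8.58% in either direction. The genes of lowest p for the slope were *Lss* and *Tm7sf2* (slope 0.18 log2 units per 25 mg/kg/day for each, limma adjusted p = 0.245) and *Nsdhl* (0.17, limma adjusted p = 0.275). Between 75 and 50 mg/kg/day, a contrast added after the values were seen, none was called, 13 of 30 were above 0 (52.4% of all probes) and 5 of 30 were at an unadjusted p under 0.05, against 6.91% of all probes. Of these 5, *Insig1* (-0.48), *Mvk* (-0.39), *Cyp51* (-0.33) and *Fdps* (-0.31) were lower at 75 mg/kg/day and *Tm7sf2* (0.38) was higher, with limma adjusted p = 0.712 for each. The higher values at 50 than at 75 mg/kg/day were therefore not established for any single gene.

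Of 26 related sterol genes (substrate supply, degradation of sterol enzymes, other sterol carriers, uptake and bile acid steps), 24 were tested. None was called at any dose, and their median log2 fold change was 0.07, 0.17 and 0.17. *Acss2*, which makes acetyl-CoA from acetate and is a target of the SREBP factors, had the largest differences, with 0.55, 0.58 and 0.86 ± 0.20 (SE; limma adjusted p = 0.109 at 75 mg/kg/day), and 3 of 5 arrays at 75 mg/kg/day lay above all controls. *Lipa*, the lysosomal lipase that frees cholesterol from its esters, differed by 0.27, 0.29 and 0.58 (adjusted p = 0.296 at 75 mg/kg/day by limma). The other 22 were at unadjusted p of 0.01 or more at every dose. In all, 6 of the 24 were at an unadjusted p under 0.05 at 75 mg/kg/day, 5 higher and 1 lower (11.2% of all probes in either direction), and 2 at 50 mg/kg/day (6.7%).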

How the data were processed

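Liver RNA of 20 mice was measured against universal reference RNA on 2-color arrays. The intensities deposited by the authors are the median brightness of each spot and of its local background in both channels, read by Feature Extraction (10.1.1.1 per the file headers). The software's own processed signals, also deposited, were corrected for background and dye and served as an alternative. The authors' log2 ratios were LOWESS normalized before deposit, and correlated with the ratios computed here at r = 0.994 to 0.996.

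In limma 3.58.1 (R 4.3.3), normexp (offset 50) was applied to the median intensities, followed by loess on each array. Outlier spots were left out and the spots of a probe averaged. The presence limit was the 5% trimmed mean of 153 negative control spots plus 3 trimmed SDs, to be passed on 4 or more of the 5 arrays in any group, as 27345 of 41174 probes did. Probes were named through their accessions. Each dose was set against control in 1 limma model of all 20 arrays, with Benjamini-Hochberg adjustment over the present probes, and a second model took dose as a number. The p-values rest on the spread between mice within groups of 5, pooled over all groups and moderated across probes by limma. The number of arrays limits the precision. Alternatives changed the background correction, the normalization, the presence filter, the probes of a gene, the slide term and the arrays in the fit. In simulated data, 95 of 100 changes of log2 size 1 and 99 of 100 of size 2 were recovered at 75 mg/kg/day, with 2 wrong calls among 27064 probes. The simulated noise was independent between probes and had no slide differences. Smaller changes, such as most of those of the cholesterol genes, were not simulated, so their recovery is not known.

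The study named MAANOVA and removed 1 sample without naming it; limma was used here and all 20 were kept. The labels name both lungs and liver, and the series text differs from the labels on the lowest dose, for which the labels' 25 mg/kg was used. All genes of the set are named, values of single arrays are printed for the 3 genes of lowest p at each dose and in the trend, related genes are named at an unadjusted p under 0.01, and genes singled out otherwise were chosen after their values were seen. Members, lists and tests were chosen with earlier results of these data known. Columns of samples outside the series numbered 0. Plots were made in matplotlib 3.10.9 (Python 3.11.15).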

Additional observations from a re-analysis of the deposited data

Results flagged for a closer look

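In 7 of 120 groups (5 arrays each, with 4 values for *Ebp* at 50 mg/kg/day), or 5.83%, the highest or lowest array of a cholesterol gene lay apart from the other arrays of its group. In these 7 its gap to the next array was 0.725 to 0.865 of the range of the group. The 120 groups share the same 20 arrays and genes that vary together, so no rate by chance is set beside the count. In 25 mg/kg/day replicate 7, *Pmvk* read 1.00 against 1.56 to 1.66 in the rest of the group, and *Msmo1* read 1.43 against 2.06 to 2.25. In 75 mg/kg/day replicate 17, *Sqle* read 0.46 against 0.70 to 0.79. *Tm7sf2* was high in 75 mg/kg/day replicate 20, at 6.16 against 5.64 to 5.78, and *Abcg8* was low in replicate 19 of that dose, at 3.46 against 4.11 to 4.21. In 50 mg/kg/day replicate 12, the brightest *Stard4* probe read 5.16 against 2.52 to 3.24, and in replicate 13 *Nr1h3* read 3.68 against 4.09 to 4.20.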

How the results depend on the processing

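No cholesterol gene was called at 25 or 50 mg/kg/day or in the trend under any alternative or with any array left out (0 to 0). At 75 mg/kg/day the count was 0 to 1 with arrays left out, the call being *Tm7sf2* without 50 mg/kg/day replicate 13, where 0.128% of all probes were called. It was 1 (*Stard4*) on slides 1 to 3 alone, a setting chosen after the data were seen. Genes at an unadjusted p under 0.05 numbered 3 to 5 at 25, 10 to 14 at 50 and 6 to 12 at 75 mg/kg/day with arrays left out (main 3, 12 and 11). They numbered 6 at 75 mg/kg/day with scanner-processed signals and 5 at 25 mg/kg/day on slides 1 to 3. With scanner-processed signals *Abcg8* at 75 mg/kg/day turned from 0.41 to -0.041. With the liver channel alone, the export median at 25 mg/kg/day went from 0.18 to 0.011, and the difference of synthesis minus export turned from -0.06 to 0.09 at 25 and from -0.06 to 0.02 at 75 mg/kg/day. With scanner-processed signals that difference was 0.01 at 75 mg/kg/day, and the export median at 50 mg/kg/day went from 0.18 to 0.08. On slides 1 to 3 the difference at 25 mg/kg/day was 0.00, and with slide as a block the synthesis median at 25 mg/kg/day went from 0.11 to 0.04. These changes of medians, apart from the first, were smaller than the SD between arrays of the dose group. The cause of these shifts was not tested. Only *Pmvk*, *Lss*, *Nsdhl*, *Tm7sf2*, *Npc1* and *Abcg8*, whose arrays are given singly, were followed under every alternative: of 540 values, 538 kept their direction and their side of the threshold, 1 passed it (*Tm7sf2*, as above) and 1 reversed (*Abcg8*, as above). None of the 18 main values was called, so keeping the side of the threshold meant staying uncalled. Where only the presence filter or an array of another dose changed, the fold change stayed the same. Part of the 538 was thus fixed in advance. With arrays left out, the difference of synthesis minus export ran from -0.14 to 0.00, from 0.02 to 0.22 and from -0.17 to 0.03 at the 3 doses. The synthesis median ran from 0.04 to 0.17, 0.25 to 0.35 and 0.13 to 0.25, and the export median from 0.10 to 0.23, 0.08 to 0.27 and 0.22 to 0.32. No paired analysis was possible because each mouse has its own number, so no replicate number is shared between groups; arrays were matched by slide instead, through the slide term and the within-slide differences.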
